A study of Mus musculus with 10 samples.

Results

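The 35 genes described here encode the contractile and scaffold proteins of the sarcomere, the unit of contraction of a muscle fibre, in their fast and slow isoforms. They were chosen by gene symbol, with no measured value in the rule, though earlier results of these data were known. All 35 were found among the 24421 rows of the count table, once each. All 35 passed the low-count filter that left 13180 genes for testing. Each library came from the calf of 1 male C57BL/6 mouse, 12 weeks old, with its gastrocnemius and plantaris taken as 1 tissue. The 10 mice had gone about 16 h without food when 5 were injected intraperitoneally with saline and 5 with ethanol at 3 g/kg, and muscle was dissected under isoflurane 1 h later, so both groups shared the fast, the injection and the anaesthetic. Polyadenylated RNA was sequenced as single reads of 100 bases. Mice are named by group and by the animal number of the labels: saline 32, 34, 36, 38 and 39, and ethanol 51, 57, 59, 60 and 62. Values by mouse follow that order.

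Muscle fibres are classed by the myosin heavy chain they carry. In adult mouse limb muscle *Myh7* encodes the slow, type I chain, *Myh2* the fast type IIa, *Myh1* the fast type IIx and *Myh4* the fast type IIb chain, and most other sarcomere proteins have matching slow and fast isoforms from separate genes. Mouse gastrocnemius and plantaris are known as fast muscles, in which slow fibres are few and lie in the deep portion beside the soleus, a slow muscle. Which isoforms a fibre makes is set over development and by nerve activity.

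Total counts per library lay between 32.0 and 42.7 M in saline and between 20.3 and 31.3 M in ethanol, so the deepest ethanol library was shallower than the shallowest saline library. The 35 genes took between 15.3 and 18.2% of a library's counts. The skeletal muscle markers *Ckm*, *Acta1*, *Mb*, *Des* and *Pygm*, none of them at 0, summed to between 57674 and 64718 CPM (counts divided by the TMM-scaled library total, on the usual CPM scale) in saline and between 57926 and 68081 in ethanol. Saline 36 stood apart from the other saline mice in several results below, and values without it are given for some of these. Ethanol 60 held 544 CPM of the 6 adipocyte markers in sum (*Adipoq*, *Plin1*, *Lep*, *Cfd*, *Retn* and *Cidec*), against 102 to 243 in the other 9 mice. Markers of tendon (*Tnmd*, *Scx*, *Mkx*, *Fmod* and *Thbs4*) summed to 478 CPM in saline 36. They summed to 313 to 397 in the other saline mice and 361 to 477 in ethanol. The erythroid gene *Alas2* was at 50.3 CPM in saline 36, 7.97 to 20.5 in the other saline mice and 11.2 to 19.5 in ethanol. The 4 globin genes listed were at 0 in all mice. Markers of fibroblasts (6 genes) summed to 829 to 1064 CPM in saline and 841 to 1161 in ethanol and those of endothelium (5 genes) to 306 to 350.4 and 324 to 428, none at 0, and the part of other cell types in the results was not tested. In whole tissue, fewer fibres of a type and less RNA per fibre cannot be told apart.

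The sequences that set fibre-type transcription lie in part in the promoters. Shown here are the 250 bases before a RefSeq start site (GRCm38.p6, read 5′ to 3′ on the strand of the gene) for *Myh7*, for 3 other slow genes whose levels varied with it from mouse to mouse (*Tnnt1*, *Tnnc1* and *Tpm3*), for the slow gene *Myl3*, whose level did not pass that test, and for the dominant fast gene *Myh4*. Capitals mark matches to motifs of muscle transcription factors or to TATAAA: the E-box CANNTG of the MyoD family, the MCAT element CATTCC, the MEF2 site, the CArG box of serum response factor and, on the sense strand alone, TATAAA.
Myh7, chr14:54994550-54994799, minus strand: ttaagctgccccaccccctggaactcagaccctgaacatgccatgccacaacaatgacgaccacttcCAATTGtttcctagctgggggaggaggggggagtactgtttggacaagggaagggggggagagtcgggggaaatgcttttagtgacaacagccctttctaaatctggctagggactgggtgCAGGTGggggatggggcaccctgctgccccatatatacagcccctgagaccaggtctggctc
Tnnt1, chr7:4515976-4516225, minus strand: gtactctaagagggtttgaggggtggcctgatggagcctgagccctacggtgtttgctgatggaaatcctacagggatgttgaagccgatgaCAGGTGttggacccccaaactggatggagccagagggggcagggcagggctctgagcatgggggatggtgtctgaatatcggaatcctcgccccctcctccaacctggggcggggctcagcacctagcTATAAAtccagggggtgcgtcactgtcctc
Tnnc1, chr14:31208062-31208311, plus strand: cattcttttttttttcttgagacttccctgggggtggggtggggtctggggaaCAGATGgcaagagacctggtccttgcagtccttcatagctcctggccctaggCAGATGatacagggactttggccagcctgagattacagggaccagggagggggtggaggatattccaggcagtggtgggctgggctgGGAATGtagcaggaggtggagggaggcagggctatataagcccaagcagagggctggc
Tpm3, chr3:90072401-90072650, plus strand: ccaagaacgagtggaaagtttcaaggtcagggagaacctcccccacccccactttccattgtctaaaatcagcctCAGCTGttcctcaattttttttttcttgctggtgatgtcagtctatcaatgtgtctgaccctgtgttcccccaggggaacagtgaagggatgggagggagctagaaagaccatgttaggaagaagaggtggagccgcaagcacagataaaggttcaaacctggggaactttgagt
Myl3, chr9:110763428-110763677, plus strand: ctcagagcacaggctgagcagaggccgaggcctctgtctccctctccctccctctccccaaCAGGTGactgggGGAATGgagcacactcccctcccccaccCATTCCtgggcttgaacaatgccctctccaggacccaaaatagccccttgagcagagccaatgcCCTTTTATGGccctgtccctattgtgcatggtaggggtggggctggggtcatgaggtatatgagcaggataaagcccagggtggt
Myh4, chr11:67237562-67237811, plus strand: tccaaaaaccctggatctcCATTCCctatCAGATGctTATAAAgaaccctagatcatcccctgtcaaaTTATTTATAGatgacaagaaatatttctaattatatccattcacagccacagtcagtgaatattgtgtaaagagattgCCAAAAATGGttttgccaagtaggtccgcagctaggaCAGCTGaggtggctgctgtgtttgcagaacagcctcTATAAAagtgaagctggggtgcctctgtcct

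Of the 35 genes, 26 matched the promoter table. No matches overlapped within these 6 windows. The *Myh7* and *Tnnc1* windows each held 2 E-boxes, *Tnnt1*, *Tpm3* and *Myl3* held 1 each and *Myh4* held 2, where 66.2% of all 32851 windows of this length hold at least 1. *Tnnc1*, *Myl3* and *Myh4* held an MCAT match, against 12.6% of all windows. The *Myh4* window held a MEF2 match (2.92% of all windows), and *Myh4* and *Myl3* each held a CArG match (1.47% of all windows). TATAAA stood 30 to 25 bases before the start site of *Tnnt1* and 31 to 26 bases before that of *Myh4* (7.59% of all windows hold it). The other TATAAA of *Myh4* stood at 213 to 208 bases before the start. These are matches of letters. RefSeq also lists starts at 54994626 for *Myh7*, whose window holds 1 E-box and 1 MCAT match, and at 90079521 for *Tpm3*, whose window holds 1 E-box. The start sites of *Myh7*, *Myl3* and *Myh4* differ by 1, 32 and 217 bases from the nearest start in GENCODE M21.

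The calf muscle was dominated by type IIb myosin transcript. With levels divided by exon length and the 4 adult chains set to sum to 100%, *Myh4* took 83.9, 84.0, 88.6, 84.2 and 83.6% in the saline mice and 86.5, 84.9, 84.9, 84.5 and 87.8% in the ethanol mice. *Myh1* followed with 6.52 to 10.8% over the 10 mice, *Myh2* with 3.46 to 6.20% and the slow *Myh7* with 0.292 to 0.472%. In each of the 10 mice the order was *Myh4*, *Myh1*, *Myh2*, *Myh7*, and neighbours in it did not overlap: the lowest *Myh1* share, in ethanol 62, was 6.52% and the highest *Myh2* share, in ethanol 60, was 6.20%. The lengths were those of merged exons, 6353 bases for *Myh1*, 7137 for *Myh2*, 6016 for *Myh4* and 8616 for *Myh7*. Their longest coding transcripts have 6081, 6083, 6016 and 6230 bases, so the gap between *Myh1* and *Myh2* depends on the length used. The highest share was 1.79 times the lowest for *Myh2* (1.62 times without saline 36), 1.66 times for *Myh1*, 1.62 times for *Myh7* and 1.06 times for *Myh4*.

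By group, the share of *Myh4* was 84.9 ± 2.09% in saline and 85.7 ± 1.41% in ethanol (SD over 5 mice, difference 0.86 percentage points, 95% interval -1.7 to 3.4, two-sided exact permutation p = 0.452, adjusted over the 4 chains p = 0.516). The share of *Myh1* was 9.75 ± 1.31% and 8.57 ± 1.15% (difference -1.18 points, interval -2.8 to 0.46, exact permutation p = 0.183, adjusted p = 0.516), but without saline 36 the difference was -1.74 points and passed (exact permutation adjusted p = 0.0317). It passed with no other mouse left out, and ran from -1.74 to -0.663 points with 1 mouse left out. Shares of *Myh2* were 4.99 ± 0.895% and 5.34 ± 0.920% (exact permutation p = 0.516), and shares of *Myh7* were 0.409 ± 0.0512% and 0.374 ± 0.0694% (exact permutation p = 0.397), with an adjusted p of 0.516 for each. The groups overlapped for all 4 chains. Saline 36 combined the highest share of *Myh4* and of *Myh7* with the lowest share of *Myh2*.

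**Figure D1:**
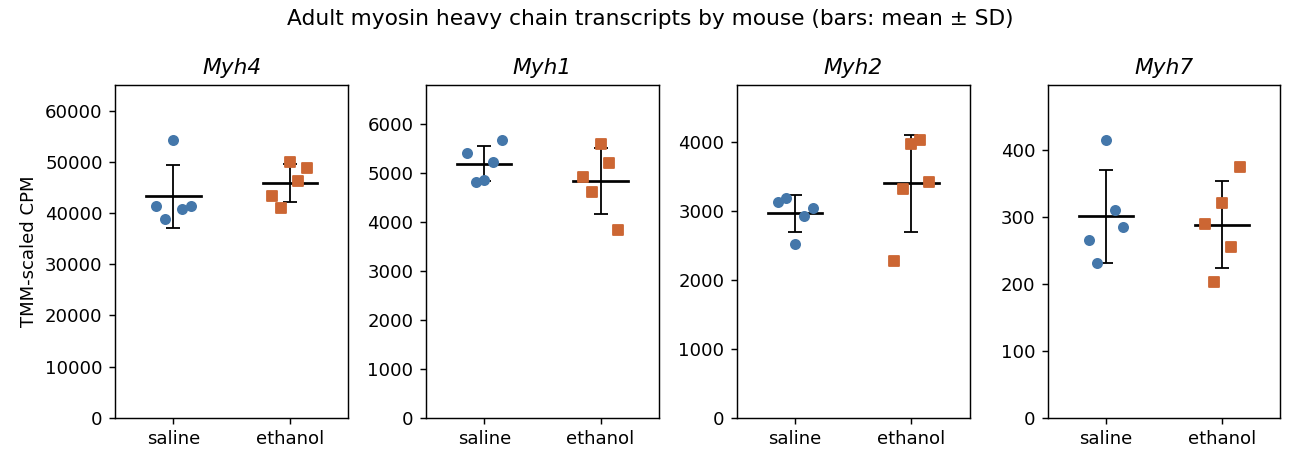
TMM-scaled CPM of the 4 adult myosin heavy chain genes in each mouse, with a separate linear axis from 0 for each gene; circles are saline and squares ethanol mice, and bars give the mean and SD of 5 mice. The groups overlap in every panel, and the highest *Myh4* and *Myh7* points, 54222 and 414 CPM, belong to saline 36.

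The genes for the fast chains lie side by side on chromosome 11 (GRCm38, GENCODE M21: *Myh2* at chr11:67171027-67197517, *Myh1* at chr11:67200052-67224575 and *Myh4* at chr11:67238029-67260446), and *Myh7* lies on chromosome 14 (chr14:54970684-54994626). *Myh4* was at 41383, 38905, 54222, 40778 and 41308 CPM in the saline mice and 43351, 41044, 49926, 46268 and 48884 CPM in the ethanol mice. Its log2 fold change, ethanol minus saline, was 0.083 (95% interval -0.13 to 0.30), with saline 36 the highest of the 10. *Myh1* was at 5400.4, 4808, 4848, 5212 and 5661 CPM in the saline mice and 4917, 4617, 5593, 5206 and 3833 in ethanol. Its log2 fold change was -0.10 (95% interval -0.31 to 0.11), with ethanol 62 the lowest. *Myh2* was at 3136, 3195, 2517, 2936 and 3052 CPM in the saline mice and 2278, 3326, 3975, 4029 and 3423 in ethanol. Saline 36 and ethanol 51 held the lowest values of *Myh2* in their groups and ethanol 59 and 60 the highest of all, and the log2 fold change was 0.20 (95% interval -0.086 to 0.48). *Myh7* was at 265, 231, 414, 311 and 284 CPM in the saline mice and 289, 203, 321, 254 and 375 in ethanol, a log2 fold change of -0.062 (95% interval -0.45 to 0.32). Saline 36 and ethanol 62 were highest and ethanol 57 lowest. None of the 4 passed the test (edgeR quasi-likelihood, false discovery rate (FDR) over all genes 0.553 to 0.918).

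Reads of these genes cannot all be told apart. Of the 100-base stretches of their coding transcripts, the read length used, 9.24% for *Myh1*, 9.17% for *Myh2* and 3.85% for *Myh4* also occur, letter for letter, in another gene of the cluster, and 10.5% for *Myh7* occur in the cardiac gene *Myh6*, which stood at 2.98 CPM in the saline group and 2.90 in ethanol. Antisense transcripts overlap exons of *Myh1*, *Myh2* and *Myh7*. The labels do not say how such reads were counted.

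The developmental chains *Myh3* and *Myh8* had the lowest levels per kilobase of the 35, with *Myh8* at 0.229 CPM per kb (mean of 10 mice). *Myh3*, the embryonic chain, was at 3.98, 4.98, 2.69, 2.61 and 3.55 CPM in the saline mice and 5.29, 5.93, 6.57, 5.11 and 2.32 in ethanol. Ethanol 51, 57, 59 and 60 lay above every saline mouse and ethanol 62 below every saline mouse, so the groups overlapped. The log2 fold change of *Myh3* was 0.50 (95% interval -0.046 to 1.05), edgeR FDR = 0.446. *Myh8*, the perinatal chain, ran from 1.71 to 3.71 CPM over the 10 mice, with a log2 fold change of 0.15 (95% interval -0.25 to 0.54). Of 10 genes listed for cardiac or regenerating fibres, 6 were tested and 0 passed FDR, and *Myod1*, a myogenic transcription factor, had the smallest p: 4.37 ± 1.06 CPM in the saline group and 8.23 ± 4.14 in ethanol (mean ± SD of 5 mice, log2 fold change 0.92 ± 0.32, SE, edgeR FDR = 0.341). Ethanol 57 and 59 held 12.0 and 13.4 CPM of *Myod1*, where the range was 3.07 to 5.91 over the other 8 mice. Of 3 satellite cell markers, *Pax7* was at 0.858 ± 0.147 CPM in the saline group and 1.59 ± 0.351 in ethanol (mean ± SD of 5 mice, log2 fold change 0.89 ± 0.20, SE, edgeR FDR = 0.287, DESeq2 adjusted p = 0.0337), and *Myf5* and *Chodl* had log2 fold changes of -0.22 ± 0.18 and 0.13 ± 0.08 (SE). Their sum, with none at 0, ran from 12.5 to 13.8 CPM in saline and from 13.3 to 15.8 in ethanol, and its part in these values was not tested. *Tnnt2*, *Actc1* and *Myog* were at log2 fold changes of 0.24 ± 0.16, -0.26 ± 0.31 and -0.095 ± 0.17 (SE).

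The slow isoform was the minor one in all 9 protein families compared, but by very different amounts. As a share of the slow and fast isoforms together, in levels per exon length, it had a median over the 10 mice of 0.392% for the myosin heavy chain (*Myh7* against *Myh1*, *Myh2* and *Myh4*), 0.413% for troponin I, 0.510% for troponin T and 0.909% for troponin C. It was 1.73% for tropomyosin (*Tpm3* against *Tpm1*), 1.98% for the regulatory light chain (*Myl2* against *Mylpf*) and 5.01% for the essential light chain (*Myl3* against *Myl1*). For calsarcin, a Z-disc binder of calcineurin, it was 5.62% (*Myoz2* against *Myoz1*). Myosin-binding protein C stood highest at 22.7% (*Mybpc1* against *Mybpc2*), and the slow-named *Mybpc1* is known to be made in fast fibres as well. These percentages depend on the length used, here all annotated exons of a gene merged. Merged exons span 3423 bases for *Myoz2* and 1892 for *Myoz1*, against 1181 and 1289 in their longest coding transcripts. For *Tnni1* and *Tnni2* they span 3600 and 1497 bases, against 1150 and 768.

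**Figure D2:**
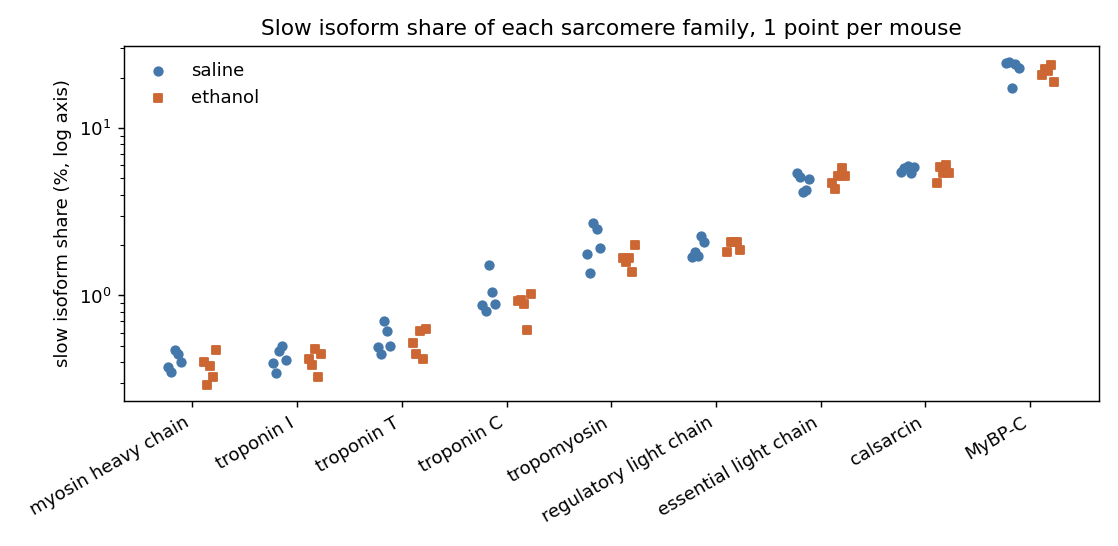
Slow isoform share of each family on a log axis, with a circle for each saline and a square for each ethanol mouse; MyBP-C is myosin-binding protein C. The shares run from 0.292% for the myosin heavy chain in ethanol 57 to 24.8% for myosin-binding protein C in saline 34, and the groups overlap in every family.

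The spread of these shares between mice was widest for troponin C, at 0.879, 0.805, 1.52, 1.05 and 0.885% in the saline and 0.924, 0.936, 0.895, 0.626 and 1.02% in the ethanol mice, a 2.44-fold range with saline 36 highest and ethanol 60 lowest. This rank rested on saline 36, without which the range of troponin C was 1.69-fold and that of tropomyosin 1.84-fold. Tropomyosin followed, at 1.78, 1.37, 2.71, 2.51 and 1.92% and 1.67, 1.58, 1.67, 1.38 and 2.01%, a 1.98-fold range. The other families ranged from 1.28-fold (calsarcin) to 1.69-fold (troponin T). Without saline 36 the range of troponin T was 1.52-fold and that of the myosin heavy chain 1.61-fold. No family differed between groups by a two-sided exact permutation test (adjusted over the 9 families p = 0.726 to 0.754). The largest relative difference was in tropomyosin, 2.06 ± 0.549% in saline and 1.66 ± 0.229% in ethanol (SD over 5 mice, difference -0.391 percentage points, interval -1.1 to 0.23, exact permutation p = 0.198). Without saline 36 it was -0.228 points, and it ran from -0.564 to -0.228 with 1 mouse left out. For the myosin heavy chain the interval of the difference ran from -0.124 to 0.0617 points around a saline mean of 0.409%, and for troponin I from -0.0979 to 0.0765 around 0.423%. A test of 5 against 5 cannot give a p below 0.00794.

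The light chains bind the neck of the myosin head. *Mylpf*, the fast regulatory chain, and *Myl1*, the fast essential chain, stood at 6432 ± 1257 and 7659 ± 983 CPM in the saline group and at 6109 ± 831 and 7052 ± 712 in ethanol (mean ± SD of 5 mice), and *Mylk2*, the skeletal kinase that phosphorylates the regulatory chain, at 1443 ± 175 and 1398 ± 146. Their log2 fold changes were -0.074 ± 0.13, -0.12 ± 0.10 and -0.045 ± 0.10 (SE). The slow regulatory chain *Myl2* was at 226, 270.4, 217, 196 and 227 CPM in the saline mice and 200.1, 216, 288, 207 and 228 in ethanol. Saline 34 and ethanol 59 were its highest mice, and the log2 fold change was 0.0043 (95% interval -0.23 to 0.24). *Myl3*, the slow essential chain, was at 432, 449, 373, 281 and 354 CPM in the saline mice and 338, 297, 439, 377 and 384 in ethanol. Saline 38 was the lowest and saline 34 the highest, and its log2 fold change was -0.042 (95% interval -0.32 to 0.23). Saline 38 was also the lowest of the 10 mice for *Mylpf*, at 4629.6 CPM.

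Troponin, the calcium switch of the thin filament, has inhibitory (I), tropomyosin-binding (T) and calcium-binding (C) subunits. The fast subunits *Tnnt3* and *Tnnc2* had the highest levels per kilobase of merged exons of all 35 genes, at 13381 and 11552 CPM per kb (mean of 10 mice), above *Myh4* at 7415 and *Tnni2* at 5936. The order of the last 2 depends on the length used. Merged exons span 1497 bases for *Tnni2*, against 768 in its longest coding transcript, and 6016 by either measure for *Myh4*. Of the 800 exon bases of *Tnnc2*, 592 overlap exons of *Ube2c* on the opposite strand, so its count depends on how such reads were counted. *Ube2c* itself stood at 0.360 CPM in the saline group and 0.272 in ethanol. *Tnnc2* was at 9450.1, 9873, 8078, 7596 and 8881 CPM in the saline mice and 9339, 7684, 11588, 8487 and 11444 in ethanol. Ethanol 59 and 62 lay above every other mouse, and the log2 fold change was 0.15 (95% interval -0.11 to 0.40). *Tnnt3* and *Tnni2* had log2 fold changes of 0.014 ± 0.09 and 0.0094 ± 0.12 (SE) and ranges over the 10 mice of 17671 to 22942 and 6695 to 10336 CPM, and both changes turn negative when the GC trend of each library is removed.

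The slow subunits stood far below these, at 72.8, 111 and 24.8 CPM per kb for *Tnnt1*, *Tnnc1* and *Tnni1*. *Tnni1*, slow troponin I, was at 89.7, 86.3, 106, 80.8 and 83.2 CPM in the saline mice and 92.4, 74.0, 114, 59.9 and 107 in ethanol. *Tnnt1*, slow troponin T, was at 151, 143, 222, 153 and 143 CPM in the saline mice and 162, 118, 193, 117 and 203 in ethanol. *Tnnc1*, the troponin C shared by slow skeletal and cardiac muscle, was at 109, 104, 163, 105 and 103 CPM in the saline mice and 113, 94.5, 136, 69.5 and 153 in ethanol. In all 3 genes ethanol 60 was the lowest mouse. Saline 36 was the highest for *Tnnt1* and *Tnnc1*, and ethanol 59 for *Tnni1*. Their log2 fold changes were 0.0059 (95% interval -0.33 to 0.34), -0.037 (95% interval -0.43 to 0.36) and -0.044 (95% interval -0.50 to 0.42), and each sign turned when 1 or another mouse was left out.

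Tropomyosin lies along the actin filament and blocks myosin until calcium binds troponin. *Tpm1* stood at 14339 ± 1618 CPM in the saline group and 15545 ± 1771 in ethanol and *Tpm2* at 7219.9 ± 685 and 7346 ± 509 (mean ± SD of 5 mice). Their log2 fold changes were 0.12 ± 0.10 and 0.025 ± 0.08 (SE). Both are also made in smooth muscle, whose 6 markers (*Myh11*, *Acta2*, *Tagln*, *Cnn1*, *Smtn* and *Lmod1*, none at 0) summed to 209 to 332 CPM in saline and 252 to 307 in ethanol. Their part in the tropomyosin counts was not tested. *Tpm3*, the slow-fibre tropomyosin gene, was at 249, 207, 408, 289 and 249 CPM in the saline mice and 253, 204, 279, 183 and 326 in ethanol. Saline 36 was the highest and ethanol 60 the lowest mouse, and the log2 fold change was -0.17 (95% interval -0.60 to 0.26), or -0.0016 without saline 36. Of the 100-base stretches of *Tpm3*, 27.6% also occur in the gene copy *Tpm3-rs7*, so its count is uncertain, and *Tpm3* has non-muscle isoforms that a count per gene includes.

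At the Z disc, where actin filaments of neighbouring sarcomeres are anchored, the α-actinin genes *Actn3*, made in fast fibres, and *Actn2*, made in all fibres, stood at 8014 ± 831 and 1913 ± 161 CPM in the saline group and 8397 ± 597 and 1863 ± 156 in ethanol (mean ± SD of 5 mice). Their log2 fold changes were 0.067 ± 0.09 and -0.038 ± 0.08 (SE). Titin-cap (*Tcap*), myotilin (*Myot*) and *Ldb3*, which encodes the α-actinin binder ZASP, had among the narrowest spreads of the set, with within-group SDs of 0.13, 0.10 and 0.11 log2 units. *Tcap* ran from 2483 to 3255 CPM and *Myot* from 1329 to 1652 over the 10 mice, with log2 fold changes of 0.10 ± 0.09 and 0.042 ± 0.08 (SE). *Ldb3* was at 1500.4, 1633, 1552, 1672 and 1778 CPM in the saline mice and 1573, 1914, 1878, 1699 and 1685 in ethanol, a log2 fold change of 0.11 (95% interval -0.067 to 0.28). Ethanol 57 and 59 were its highest mice and saline 32 the lowest. The slow calsarcin gene *Myoz2* was at 249.5, 279, 259, 196 and 242 CPM in the saline mice and 191, 230.1, 254, 199 and 237 in ethanol. Ethanol 51, saline 38 and ethanol 60 were lowest, and its log2 fold change was -0.14 (95% interval -0.36 to 0.085). The other calsarcin genes *Myoz1* and *Myoz3* were at -0.070 ± 0.10 and -0.10 ± 0.10 (log2 fold change, SE), with ranges of 1719 to 2527 and 151 to 239 CPM.

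The thick filament is bound by myosin-binding proteins and tied at the M band by myomesins. *Mybpc2*, the fast form, stood at 5781 ± 789 CPM in the saline group and 5827 ± 393 in ethanol (mean ± SD of 5 mice, log2 fold change 0.012 ± 0.10, SE). *Mybpc1*, the slow form, was at 2199, 2152, 1841, 2421 and 1926 CPM in the saline mice and 1951, 1966, 2213, 2122 and 1761 in ethanol. Ethanol 62 and saline 36 were lowest for *Mybpc1*, the mice with the most *Myh7*, and the log2 fold change was -0.074 (95% interval -0.27 to 0.12). *Mybph*, a smaller relative, varied most of the 35 genes. It was at 31.8, 17.1, 15.1, 7.45 and 7.68 CPM in the saline mice and 24.1, 15.5, 10.6, 21.4 and 7.91 in ethanol, with a log2 fold change of 0.0018 (95% interval -1.04 to 1.04). Its exons overlap those of *Adora1* on the opposite strand, which stood at 0.953 CPM in the saline group and 1.45 in ethanol. Myomesin genes *Myom1* and *Myom2* were at -0.069 ± 0.09 and -0.026 ± 0.08 (log2 fold change, SE), with ranges of 1803 to 2542 and 1522 to 1900.5 CPM. *Myom3* was at 128, 130.1, 81.5, 130.3 and 144 CPM in the saline mice and 85.2, 136, 141, 140.3 and 152 in ethanol. Saline 36 and ethanol 51, which also held the least *Myh2*, lay far below the other 8 mice for *Myom3*, whose log2 fold change was 0.092 (95% interval -0.28 to 0.46).

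Titin (*Ttn*), the spring that spans from Z disc to M band, was the only member of the 35 at an unadjusted p under 0.05 in edgeR's quasi-likelihood test with all 10 mice, and it did not pass the threshold (FDR = 0.322, DESeq2 adjusted p = 0.138). It was at 7517, 6627, 7709.98, 6256 and 6441 CPM in the saline mice and 4748, 5376, 6836, 5347 and 5653 in ethanol. Ethanol 51, 57, 60 and 62 lay below every saline mouse and ethanol 59 within the saline range. The log2 fold change was -0.31 (95% interval -0.52 to -0.088), from -0.39 to -0.25 with 1 mouse left out. *Ttn* has by far the longest transcript of the 35, at 106824 bases in GENCODE M21. With the trend of each library on transcript length removed, an alternative chosen after the values were seen, its log2 fold change was -0.066 (edgeR FDR = 0.791). That trend has little support at such a length. The nearest tested genes were *D10Wsu102e* (123179 bases, log2 fold change 0.0094) and *Kcnq1ot1* (93092 bases, -0.16), and the next had 40378 bases (*D1Ertd622e*, 0.29). The slope of centred log2 CPM per doubling of transcript length was 0.011 ± 0.074 in saline and -0.011 ± 0.040 in the ethanol libraries (SD over 5 mice), which did not pass an exact permutation test (p = 0.579). Of the 47 tested genes with transcripts of at least 15000 bases, a bound also set after seeing values, 37 had negative fold changes, where 49.8% of all tested genes were negative. The median of the 47, which include *Ttn* and *Neb* themselves, was -0.16. The part of transcript length in the *Ttn* value was not tested. Nebulin (*Neb*), the giant ruler of the thin filament, stood at 4938 ± 978 CPM in the saline group and 4031 ± 329 in ethanol (mean ± SD of 5 mice, log2 fold change -0.29 ± 0.12, SE).

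Across the set, 0 of 35 genes passed FDR 0.05 in edgeR's quasi-likelihood test, where 0% of all tested genes did, and 0 passed with DESeq2, which called 55 genes (0.468% of those it tested). At an unadjusted p under 0.05 in edgeR there was 1 gene lower in ethanol (*Ttn*) and 0 higher, where 5.91% of all genes were lower and 6.22% higher. Under that threshold *Myh3* joined it with DESeq2 and without saline 34 or ethanol 62, *Myoz2* without saline 38 and *Myh2* without ethanol 51, and with the length trend removed there were 0. The groups did not overlap for 0 of the 35, against 2.18% of all genes. Log2 fold changes ran from -0.31 (*Ttn*) to 0.50 (*Myh3*), with 17 negative (49.8% of all genes) and a median of 0.0018, against 9.56e-04 over all genes. The 95% interval included 0 for 34 of 35, with a median half-width of 0.22 log2 units. Fast members (12 genes) had a median log2 fold change of 0.010 and the 9 slow isoforms of the families a median of -0.044. The sign of 18 of the 35 depended on the processing or on a single mouse, all with log2 fold changes of 0.0999 or less in size. Transcript GC content moved with the groups, at a mean slope of centred log2 CPM per 10 percentage points of GC of -0.044 ± 0.038 in saline and 0.044 ± 0.015 in the ethanol libraries (SD over 5 mice, exact permutation p = 0.00794). With that trend removed 8 of the 35 changed sign.

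**Figure D3:**
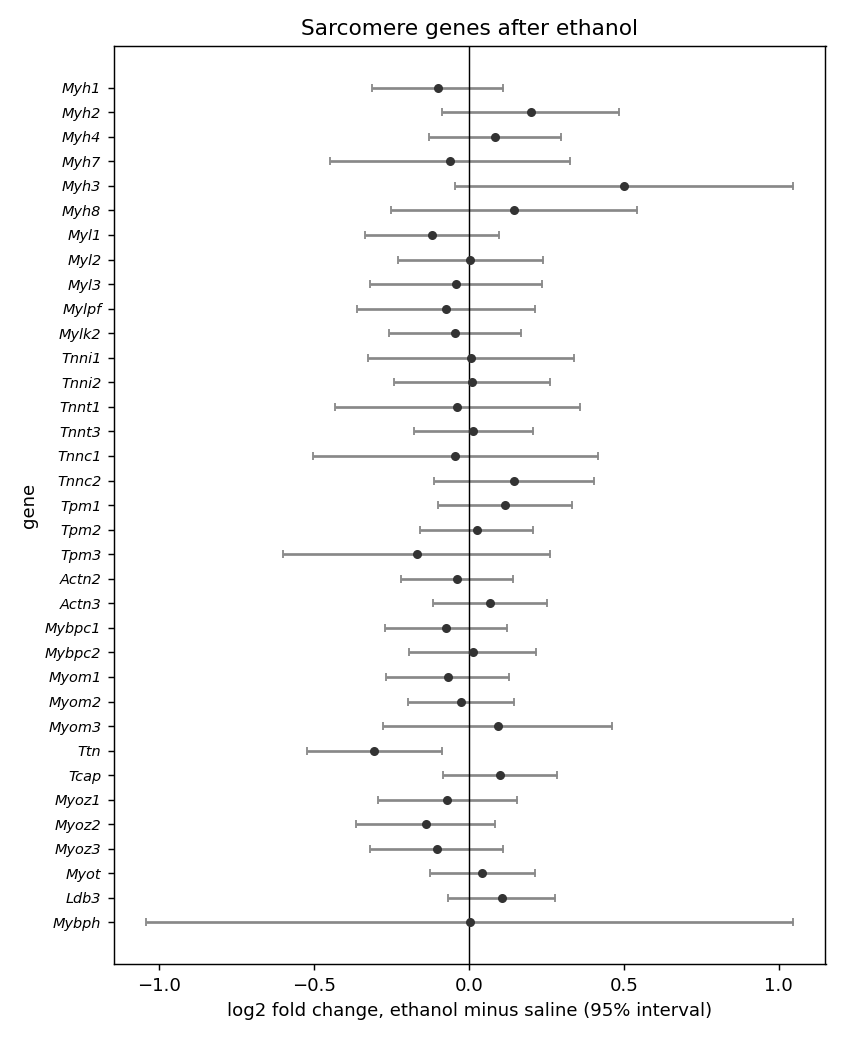
Log2 fold change of the 35 genes, ethanol minus saline, on the horizontal axis, as points with 95% intervals from edgeR (5 mice per group). The interval of *Ttn*, -0.52 to -0.088, lies below 0 and the other 34 include it, the widest being that of *Mybph*.

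Mice of a group differed widely in 5 of the 9 slow isoforms. The within-group SD of log2 CPM was 0.38 for *Tnnc1*, 0.35 for *Tpm3*, 0.33 for *Tnnt1*, 0.33 for *Myh7* and 0.29 for *Tnni1*, which placed these 5 at the 86.2, 83.6, 81.1, 80.7 and 75.8 percentiles of all tested genes. The median SD was 0.16 for the 12 fast members, 0.17 for all 35 and 0.19 for all tested genes, which include many scarce ones. Among the 1433 tested genes of mean at least 100 CPM it was 0.146, with quartiles of 0.108 and 0.198. Against these abundant genes the medians of the fast members and of all 35 were higher. The narrowest of the 35 were *Myot*, *Myom2* and *Ldb3*, at 0.10, 0.10 and 0.11. The widest were *Mybph*, at 0.78, and the scarce *Myh3*, at 0.50. Saline 36 was the highest of the 10 mice for 13 of the 35 genes and ethanol 59 for 8, and saline 38 was the lowest for 10 and ethanol 60 for 7. These ranks depend in part on the library scaling. Saline 36 had the lowest TMM factor, 0.917, against 0.972 to 1.063 in the other mice, and a lower factor gives higher CPM for every gene. For 4 of the 9 slow isoforms, *Tnni1*, *Tnnt1*, *Tnnc1* and *Tpm3*, ethanol 60 was the lowest.

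**Figure D4:**
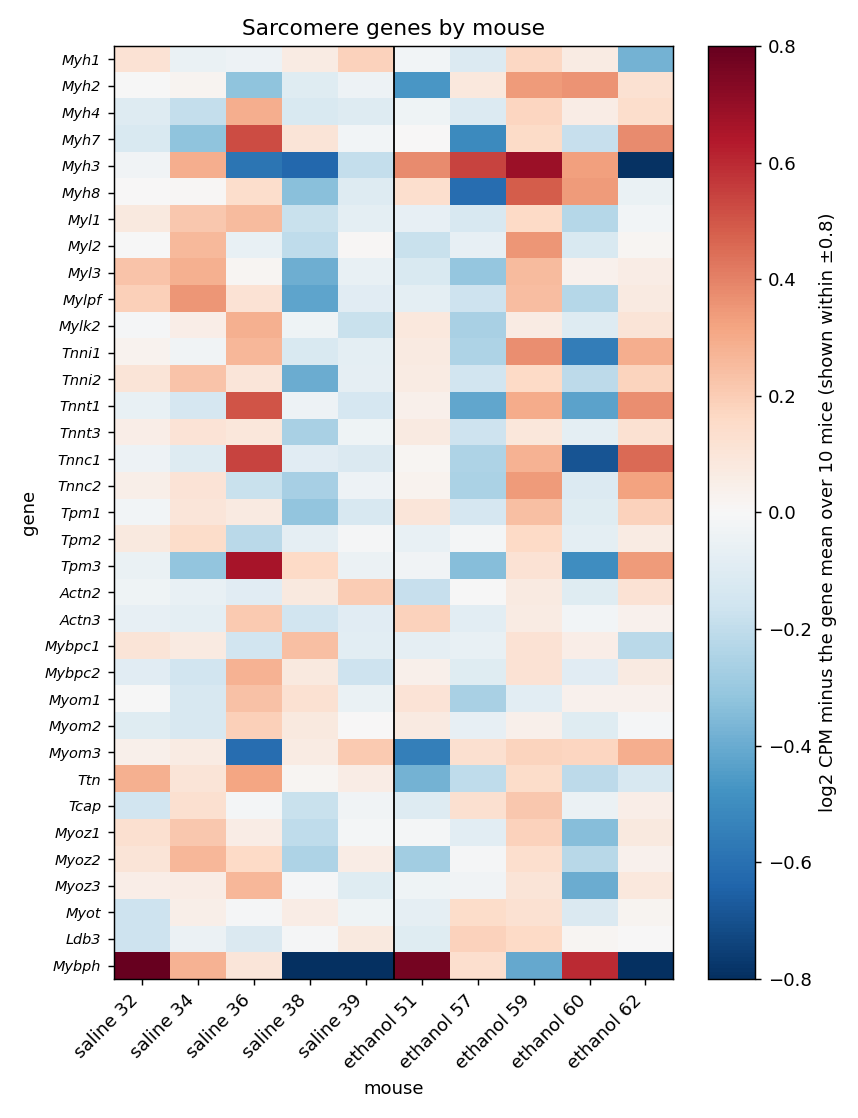
Log2 CPM of each of the 35 genes (rows) in each mouse (columns, saline left of the line) minus that gene's mean over the 10 mice, red above and blue below it, with colours limited at 0.8 log2 units. Saline 36 is above the mean for *Myh7*, *Tnnt1*, *Tnnc1* and *Tpm3* together and below it for *Myh2* and *Myom3*, and ethanol 60 is below the mean for *Tnni1*, *Tnnt1*, *Tnnc1* and *Tpm3*.

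Some slow genes followed *Myh7* from mouse to mouse. Over the 10 mice, log2 CPM of *Myh7* was compared with that of 8 other slow and 8 fast members, 16 relations in all. *Tpm3* followed it most closely (r = 0.92, permutation p = 2.50e-04, adjusted p = 0.00400, rho = 0.95, permutation p = 1.50e-04), then *Tnnt1* (r = 0.91, permutation p = 5.40e-04, adjusted p = 0.00432, rho = 0.94, permutation p = 2.60e-04). *Tnnc1* also passed (r = 0.78, permutation p = 0.00828, adjusted p = 0.0331, rho = 0.87, permutation p = 0.00207). *Tnni1* did not pass after adjustment (r = 0.68, permutation p = 0.0292, adjusted p = 0.0934, rho = 0.73, permutation p = 0.0198), except without ethanol 60 (permutation adjusted p = 0.0473). With each group centred on its mean, r was 0.93, 0.90, 0.78 and 0.68 for these 4 genes. Without saline 36 and ethanol 57, the mice farthest from the median of *Myh7*, r was 0.90 (permutation adjusted p = 0.0467), 0.81 (0.146), 0.73 (0.224) and 0.61 (0.327). The calls for *Tnnt1* and *Tnnc1* were thus lost among these 8 mice, while that for *Tnnt1* held with any single mouse left out (r = 0.858 to 0.940).

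Of the fast members, *Myh4* ran with *Myh7* (r = 0.78, permutation p = 0.00802, adjusted p = 0.0331, rho = 0.70, permutation p = 0.0296), while *Myh1* and *Myh2* were at r = -0.19 and -0.27 (permutation adjusted p = 0.801 and 0.729). Without the 2 farthest mice the r of *Myh4* was 0.65 (permutation adjusted p = 0.324). The calls for *Tnnc1* and *Myh4* were each lost when any of saline 32, 34 or 36 or ethanol 51, 59 or 62 was left out (permutation adjusted p = 0.0554 to 0.209) and with scaling by total count alone. *Myl2* (r = -0.043), *Myl3* (0.10), *Myoz2* (0.07) and *Mybpc1* (-0.34) did not pass (permutation adjusted p = 0.674 to 0.906). These values share the library scaling, and rho for the 4 was 0.10, -0.0061, 0.09 and -0.28. The fast *Tnni2*, *Tnnt3*, *Tnnc2*, *Mylpf* and *Myl1*, at r = 0.11 to 0.38, did not pass either (permutation adjusted p = 0.674 to 0.903). Groups could differ: r was -0.65 within saline and 0.41 within ethanol for *Myl2*, and -0.46 and 0.74 for *Myl3*. For *Tnnt3*, *Tnnc2* and *Tnni2* it was -0.10, -0.77 and -0.25 within saline. Within ethanol it was 0.96, 0.94 and 0.87, against 0.87 for *Tpm3*, which was not tested.

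**Figure D5:**
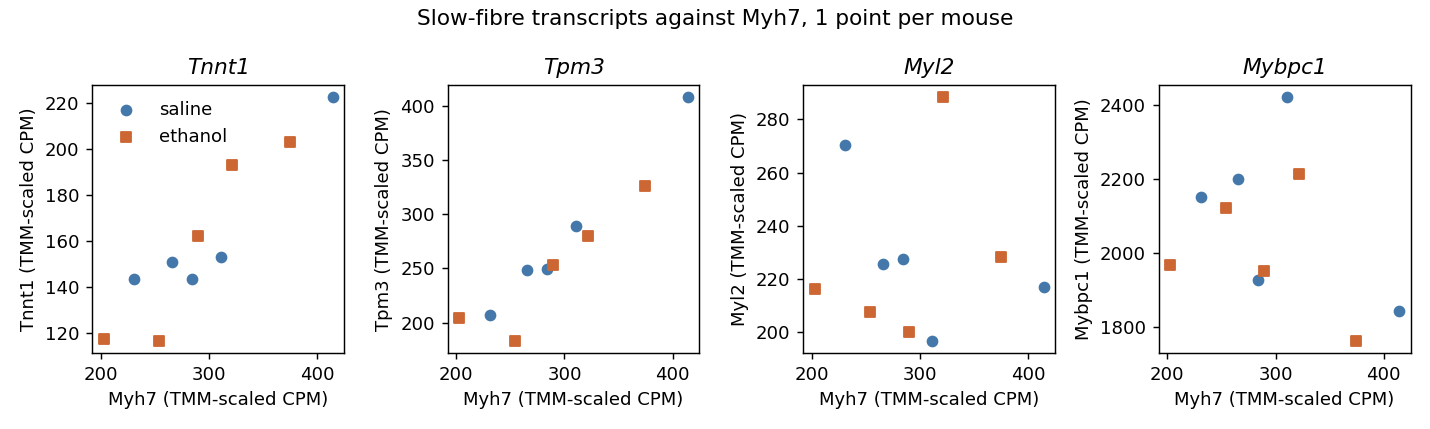
TMM-scaled CPM of *Tnnt1*, *Tpm3*, *Myl2* and *Mybpc1* (vertical, linear axes that do not start at 0) against that of *Myh7* (horizontal), a point for each of the 10 mice, circles saline and squares ethanol. *Tnnt1* and *Tpm3* rise along with *Myh7* (r = 0.91 and 0.92 on the log2 scale) and the points of *Myl2* and *Mybpc1* show no such line (r = -0.043 and -0.34).

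All 36 pairs of the 9 slow isoforms were then compared, a step added after the values were seen. Among the 10 pairs of *Myh7*, *Tnni1*, *Tnnt1*, *Tnnc1* and *Tpm3*, r ran from 0.68 to 0.95, and 9 passed when adjusted over the 36. The closest were the troponins *Tnnt1* and *Tnnc1* (r = 0.95, rho = 0.98, permutation adjusted p = 3.60e-04 and 0.00108) and *Tnni1* and *Tnnc1* (r = 0.95, rho = 0.92, permutation adjusted p = 0.00225 and 0.00382). *Myl2*, *Myl3* and *Myoz2* also ran together. *Myl2* was at r = 0.78 with *Myoz2* and 0.76 with *Myl3* (permutation adjusted p = 0.0322 and 0.0398), and *Myl3* was at 0.68 with *Myoz2* (adjusted p = 0.0900, permutation). The 15 pairs between the 5 genes and these 3 ran from -0.043 to 0.49, and 0 passed. Leaving out the 2 mice farthest from the median of the first gene of each pair, r ran from 0.61 to 0.95 within the 5, from 0.62 to 0.87 within the 3 and from -0.31 to 0.36 between them. The sets were drawn from these same values, so the split is a description of the 10 mice, and the difference between the correlations was not tested.

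Slow fibres are also marked by genes outside the set of members described above. Of 10 such genes tested, 0 passed FDR 0.05, 1 was lower and 0 higher at an unadjusted p under 0.05, and the median log2 fold change was 0.054. The smallest p values belonged to the stretch-responsive genes *Ankrd2* and *Csrp3*, the fatty acid binding protein gene *Fabp3* and the slow calsequestrin gene *Casq2*, at log2 fold changes of -0.27 ± 0.12, -0.45 ± 0.20, 0.26 ± 0.13 and 0.25 ± 0.13 (SE, edgeR FDR = 0.405 to 0.455). *Atp2a2*, the calcium pump of slow fibres, was chosen after its values were seen. It was at 372, 327, 647, 559 and 420.2 CPM in the saline mice and 367, 392, 530.3, 357 and 494 in ethanol. Saline 36 and 38 were highest and saline 34 lowest, and over the 10 mice its r with *Myh7* was 0.81 (permutation p = 0.00384, adjusted over all genes p = 0.540, rho = 0.78, permutation p = 0.0107, r = 0.82 without the 2 farthest mice). The list as a whole did not run with *Myh7* in 1 direction, since r was negative for 5 of the 10 genes with a median of -0.12. It was lowest for *Casq2* (r = -0.73, permutation p = 0.0158, rho = -0.73, permutation p = 0.0205, r = -0.47 without the 2 farthest mice), and 0 of the 10 passed when adjusted over all genes.

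Among 10 genes of fast fibres, which rely on glycogen and glycolysis, 0 passed FDR and 0 had an unadjusted p under 0.05 in either direction. The smallest p values were those of the glycolytic gene *Pgam2* (0.38 ± 0.21), the fast calsequestrin gene *Casq1* (0.19 ± 0.12), *Gpd1* (0.10 ± 0.07) and the phosphofructokinase gene *Pfkm* (0.084 ± 0.08, log2 fold change, SE). *Atp2a1*, the fast calcium pump, and the calcium buffer parvalbumin (*Pvalb*) stood at 38424 ± 2751 and 7412 ± 1387 CPM in the saline group and 38069.6 ± 2056 and 7465 ± 647 in ethanol (mean ± SD of 5 mice). With *Myh7* over the 10 mice, r was negative for 3 of these 10 fast-fibre genes and ran from -0.41 (*Pgam2*) to 0.82 (*Pygm*, muscle glycogen phosphorylase, permutation p = 0.00304, rho = 0.81, permutation p = 0.00738, r = 0.64 without the 2 farthest mice), and 0 passed when adjusted over all genes.

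Of 20 regulators of fibre type, 0 passed FDR, 0 were lower and 1 was higher at an unadjusted p under 0.05. This was *Eya1*, a transcriptional cofactor, at 20.0 ± 1.82 CPM in the saline group and 22.9 ± 1.79 in ethanol (mean ± SD of 5 mice, log2 fold change 0.20 ± 0.08, SE, edgeR FDR = 0.383). *Sox6*, a repressor of slow genes, and *Vgll2*, a cofactor named in slow fibre formation, were at -0.19 ± 0.09 and -0.18 ± 0.09. *Nfix*, which drives fetal muscle genes, was at 329, 344, 359, 335 and 343 CPM in the saline mice and 359, 375, 386, 369 and 379.6 in ethanol, so its groups did not overlap, as for 1.36% of all genes in that direction (log2 fold change 0.13 ± 0.06, SE, edgeR FDR = 0.440). Of 16 other thick filament, Z-disc and assembly genes, 0 passed FDR, 2 were lower and 0 higher at an unadjusted p under 0.05. The actin cross-linker filamin C (*Flnc*) was at -0.37 ± 0.15 and *Neb* at -0.29 ± 0.12, followed by *Synpo2* at 0.27 ± 0.14 and *Obsl1* at 0.15 ± 0.08 (log2 fold change, SE, edgeR FDR = 0.364 to 0.471).

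Over all genes, the pattern of *Myh7* was not shared by any gene past the threshold: 0 of 13179 reached an adjusted permutation p under 0.05 (0%), and 1170 (8.88%) had an unadjusted p under 0.05. *Tpm3* and *Tnnt1* ranked 2 and 4 by r among the 13179, *Tnnc1* 83 and *Tnni1* 366. The slow isoforms *Myl3*, *Myoz2*, *Myl2* and *Mybpc1* ranked 5501, 5826, 7103 and 10376. Outside the 35, the genes of mean at least 2 CPM most like *Myh7* over the 10 mice were the golgin gene *Golga4* (r = 0.95, rho = 0.89, permutation p = 1.00e-04 and 0.00110), *Als2cl* (r = 0.92, rho = 0.95, permutation p = 2.80e-04 and 1.40e-04) and the golgin gene *Golga2* (r = 0.88). *Nfe2l1*, *Spns2*, *Phf14*, *Lonrf1*, *Cdk11b*, *Cd2bp2* and *2900097C17Rik* followed at r = 0.88 to 0.85. All 10 had an adjusted permutation p between 0.510 and 0.519, and r between 0.67 and 0.92 without the 2 farthest mice. *Golga4* was at 855, 765, 1039.98, 962 and 884 CPM in the saline mice and 841, 713, 871, 819.7 and 958 in ethanol, highest in saline 36 and lowest in ethanol 57 as for *Myh7*.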

How the data were processed

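Poly(A) RNA of 10 calf muscles was sequenced, and the authors deposited raw counts per gene symbol for each mouse. TopHat2, DESeq2 1.6.3 and mm10 are named, without a role, in the submitters' processing notes. How reads were counted, with which annotation and strand rule, is not given in the sources used here. In 27 of 24421 rows a date stands in place of the symbol, and these were kept as unnamed features.

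Genes were kept by filterByExpr (minimum count 10, minimum total count 15), scaled by TMM and tested in edgeR 4.0.16 by its quasi-likelihood F test (robust, ethanol minus saline, no covariates, Benjamini-Hochberg over 13180 genes, FDR 0.05). SEs were taken as log2 fold change over the root of F. Depth ranged from 20.3 to 42.7 M counts per library. Log2 CPM carry a prior count of 2. Levels per length use merged exons of GENCODE M21 on GRCm38, whose symbols matched 23358 rows. Shares were tested by exact permutation over 252 splits, with intervals of shifts that the test did not refuse at 0.05, found on a grid of 401 points, and correlations by 100000 permutations. The 10 libraries were sequenced as 1 pool, per the labels' protocols, which name no litter, day or batch. The rule for named genes took all 35 members, the 4 smallest p of each further gene list and the 10 genes most like *Myh7*. Alternatives were DESeq2 1.42.0, limma-voom (limma 3.58.1), RLE or total count scaling, no filter, the GC trend removed by lowess (span 0.3), other lengths, and each mouse left out; the length trend and the share ranges without saline 36 were added after seeing the data. The procedure was tested on simulated counts. The members and lists were chosen with earlier results of these data known.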

Additional observations from a re-analysis of the deposited data

Results flagged for a closer look

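A mouse counted as outlying when its gap to the nearest of the other 4 in its group exceeded 0.71 of the group's range (Dixon's test at 95%), which chance gives in about 1 of 20 groups. Of 96 groups of values, 9 were so marked. The 96 are not independent: shares are built from the same CPM as the genes, and the slow share of myosin heavy chain repeats the share of *Myh7*. The number marked can therefore not be set against that rate. Of the 9, 7 belong to saline 36. It held 54222 CPM of *Myh4*, against 38905 to 41383 in the other saline mice, and 9467 CPM of *Actn3*, against 7366 to 7826. In the same mouse the slow troponins *Tnnt1* and *Tnnc1* stood at 222 and 163 CPM, against 143 to 153 and 103 to 109. Its *Myom3* was at 81.5 CPM, against 128 to 144, its share of *Mybpc1* in myosin-binding protein C at 17.3%, against 23.0 to 24.8%, and its share of *Myh4* in the adult myosins at 88.6%, against 83.6 to 84.2%. In ethanol 51, *Myom3* was at 85.2 CPM, against 136 to 152 in the other ethanol mice. In ethanol 62, *Myh1* took 6.52% of the adult myosins, against 9.001 to 9.29%.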

How the results depend on the processing

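No paired analysis was possible because saline and ethanol mice share no animal number and no pairing is labelled. By edgeR 0 genes passed FDR 0.05 (1599 at an unadjusted p under 0.05). DESeq2 called 55, and leaving out 1 mouse gave 0 to 1. The count of members called was 0 under every alternative. The member closest to a call, *Ttn*, kept its sign in all of them. Signs of log2 fold changes near 0 turned as follows. With DESeq2 this left *Myl2* at -0.0054, *Tnni1* at -0.0035, *Tnni2* at -0.0004 and *Mybph* at -0.0028. With limma-voom this left *Myl2* at -0.0001 and *Tnni1* at -0.027. With RLE size factors this left *Myl2* at -0.0031, *Tnni1* at -0.0013 and *Mybph* at -0.0044. With no low-count filter this left *Myl2* at -0.0077, *Tnni1* at -0.0045, *Tnni2* at -0.0021 and *Mybph* at -0.0081. With the GC trend removed this left *Myl2* at -0.0075, *Tnni2* at -0.050, *Tnnt3* at -0.024, *Tpm2* at -0.029, *Actn3* at -0.0024, *Mybpc2* at -0.041, *Tcap* at -0.0025 and *Mybph* at -0.063. With the length trend removed this left *Myl2* at -0.0047, *Tnni1* at -0.024, *Tpm2* at -0.0064 and *Mybph* at -0.025. With total count scaling this left *Tnnt1* at 0.0009 and *Myom2* at 0.014. With 1 mouse left out, log2 fold changes crossed 0 for *Myh7* (-0.17 to 0.074), *Myl2* (-0.10 to 0.077), *Myl3* (-0.13 to 0.032), *Mylpf* (-0.17 to 0.016), *Mylk2* (-0.094 to 0.018), *Tnni1* (-0.099 to 0.12), *Tnni2* (-0.075 to 0.074), *Tnnt1* (-0.14 to 0.095), *Tnnt3* (-0.042 to 0.053), *Tnnc1* (-0.18 to 0.097), *Tpm2* (-0.030 to 0.068), *Actn2* (-0.074 to 0.0097), *Mybpc2* (-0.028 to 0.084), *Myom2* (-0.057 to 0.015), *Myom3* (-0.031 to 0.21) and *Mybph* (-0.20 to 0.42). Differences in share crossed 0 for troponin T (-0.053 to 0.012 percentage points), Myh2 (-0.031 to 0.73 percentage points) and troponin I (-0.032 to 0.0087 percentage points), and that of *Myh1* ran from -1.74 to -0.663. Other lengths and the log2 ratio scale turned no sign and changed no call, though the shares themselves depend on the length used. Correlations with *Myh7* crossed 0 for *Myl2* (-0.232 to 0.180), *Myoz2* (-0.140 to 0.311), *Myl3* (-0.248 to 0.311), *Mylpf* (-0.0438 to 0.377) and *Myh1* (-0.412 to 0.290). With total count scaling r was -0.18 for *Myl3*, -0.28 for *Myoz2*, -0.066 for *Tnni2*, -0.018 for *Tnnt3*, -0.19 for *Mylpf* and -0.032 for *Myl1*. Between 2 and 4 slow genes passed with 1 mouse left out, against 3 with all. The median within-group SD of the 35 genes stayed between 0.168 and 0.183. The causes were not tested. With 5 mice a group, a log2 difference inside the half-widths given could not be seen, and *Myh3* and *Myh8* rest on counts from 51 per library.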
